A study of Mus musculus with 21 samples.

Results

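Genes of oocyte chromatin and DNA methylation were followed through mouse ovarian follicle development on 21 Illumina bead arrays. The list held 10 genes, chosen by their symbol in the array annotation: Dppa3, Npm2, H1f8 (also called H1foo), Dnmt1, Dnmt3a, Dnmt3b, Dnmt3l, Uhrf1, Tet3 and Zfp57. Of these, 9 had a probe, 14 probes in all among the 25697 on the array, and 8 genes with 11 probes passed the detection filter that left 10067 genes for testing. Dnmt3a had a pair of probes that were above background on 0 of 21 arrays, and Zfp57 had no probe under its symbol.

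All samples came from female CD1 mice, 3 arrays per stage, and no genotype or allele was named. PMD3 and PMD4 were entire ovaries of postnatal day 3 and day 4, in which primordial follicles prevail, so that these groups also hold every other cell of the ovary. The isolated follicles were PRIMARY (70 to 90 µm, day 10), TLS (secondary follicles with 2 granulosa layers, 100 to 130 µm, day 12), MLS (secondary follicles with more layers, 150 to 180 µm, day 16), PREANTRAL (200 to 300 µm, day 18) and ANTRAL (400 to 600 µm, day 20). For ANTRAL the source names add priming with PMSG (pregnant mare serum gonadotropin), a hormone preparation that drives follicle growth, so that treatment and stage cannot be told apart there. An exception among the PREANTRAL samples is replicate 2, whose labels give PMSG, 400 to 600 µm and day 20, although its title is PREANTRAL. Per the labels, the 3 samples of a stage were taken from its pooled material and separate animals are not named. The p-values below therefore reflect no more than how samples of the same stage varied, possibly for technical reasons. In the main fits that spread was estimated over all 21 arrays together.

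An oocyte stores chromatin proteins and RNA for the embryo while it grows, and sets the DNA methylation of the maternal genome, imprints included, during that same growth. The de novo methyltransferase DNMT3A works there with DNMT3L, a relative without enzyme activity, while DNMT1 with its partner UHRF1 copies methylation after replication. DPPA3, NPM2 and H1F8 are stored maternal chromatin proteins, TET3 oxidises 5-methylcytosine after fertilization, and ZFP57 binds methylated imprint control regions in the embryo. Follicle growth adds granulosa cells around a single oocyte, so that the oocyte's share of a follicle's RNA changes with stage.

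The promoter windows of genes that followed the different courses described below are shown for comparison. They are from RefSeq on GRCm38.p6, run from 250 bases before to 50 bases after an annotated transcript start, and are printed in the direction of the gene. Capitals mark E-boxes, CANNTG with N any base, the class of site bound by FIGLA and SOHLH1, regulators of early oocyte genes. The H1f8 window is at chr6:115944681-115944980 on the plus strand, the Dnmt3l window farthest upstream at chr10:78042037-78042336 on the plus strand and the Dnmt3b window at chr2:153649199-153649498 on the plus strand. For Dnmt1 the window farthest upstream, at chr9:20959839-20960138, and the one farthest downstream, at chr9:20952574-20952873, are shown, both on the minus strand. The mouse gene is known to have an oocyte first exon upstream of its somatic one. Which window belongs to which first exon was not determined. A further Dnmt1 window between these, at chr9:20952930-20953229, is not shown.
H1f8: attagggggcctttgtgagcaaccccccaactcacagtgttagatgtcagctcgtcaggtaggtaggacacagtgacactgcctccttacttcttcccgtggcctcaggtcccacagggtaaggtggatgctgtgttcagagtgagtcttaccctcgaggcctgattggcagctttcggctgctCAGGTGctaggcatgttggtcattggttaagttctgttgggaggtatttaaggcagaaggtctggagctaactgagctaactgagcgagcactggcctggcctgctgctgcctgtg
Dnmt3l, upstream window: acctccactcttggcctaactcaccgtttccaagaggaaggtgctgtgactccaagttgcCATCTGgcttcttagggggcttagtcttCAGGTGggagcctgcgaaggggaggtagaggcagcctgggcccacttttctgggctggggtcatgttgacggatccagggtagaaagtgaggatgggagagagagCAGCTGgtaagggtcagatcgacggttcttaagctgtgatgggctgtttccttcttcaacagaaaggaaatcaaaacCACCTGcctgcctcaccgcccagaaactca
Dnmt3b: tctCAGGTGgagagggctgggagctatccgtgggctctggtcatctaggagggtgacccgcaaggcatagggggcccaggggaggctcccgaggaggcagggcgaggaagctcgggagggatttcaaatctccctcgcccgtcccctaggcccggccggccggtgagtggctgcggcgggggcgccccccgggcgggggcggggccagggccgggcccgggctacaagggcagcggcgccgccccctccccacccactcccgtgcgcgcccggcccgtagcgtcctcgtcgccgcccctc
Dnmt1, upstream window: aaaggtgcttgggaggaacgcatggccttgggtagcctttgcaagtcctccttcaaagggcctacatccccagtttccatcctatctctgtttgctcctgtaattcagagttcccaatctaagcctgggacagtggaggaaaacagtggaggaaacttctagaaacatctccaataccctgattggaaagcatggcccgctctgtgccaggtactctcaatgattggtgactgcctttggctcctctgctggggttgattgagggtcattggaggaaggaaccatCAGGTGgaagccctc
Dnmt1, downstream window: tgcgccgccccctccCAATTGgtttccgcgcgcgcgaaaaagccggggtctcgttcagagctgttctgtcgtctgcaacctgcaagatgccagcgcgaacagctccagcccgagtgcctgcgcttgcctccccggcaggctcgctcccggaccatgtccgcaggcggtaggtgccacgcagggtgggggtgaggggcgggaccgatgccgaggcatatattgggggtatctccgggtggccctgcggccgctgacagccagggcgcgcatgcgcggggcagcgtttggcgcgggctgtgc

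The windows shown differed in CG dinucleotides, and the windows of Dnmt1 differed within the gene. The H1f8 window held 5, the upstream Dnmt3l window 6 and the upstream Dnmt1 window 2, against a median of 7 over all 32851 windows. The downstream Dnmt1 window held 33 and the Dnmt3b window 30, and 92.3% and 89.4% of all windows held as many or fewer. The Dnmt1 window that is not shown held 12, and 62.1% of all windows held as many or fewer. The upstream Dnmt3l window carried 4 E-boxes, and at least that many were found in 6.49% of all windows. The other windows of Dnmt3l, which are not shown, carried 1 and 0. Windows were found for 8 of the 10 genes, 17 in all; 13 held an E-box, beside 72.3% of all windows, and 0 held TAATTG or TAATTA on either strand, the class of site of NOBOX, which 12.4% of all windows held. The pattern CANNTG matches on both strands at once, though a single E-box such as CAGGTG need not read the same on both. CAGGTG or its complement CACCTG, a form singled out after the windows were seen, was in 4 of the 17 windows and in 20.2% of all windows. These matches are letters in a window and say nothing of binding. Dppa3 and Npm2 are named only.

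Levels are given as log2 of the background-corrected, quantile-normalized signal, in which 1 unit is a doubling. A probe is called detected on an array at a detection p under 0.05. Each array detected 12363 to 13953 probes, or 48.1% to 54.3%, and the lowest level at which a detected probe stood lay between 5.0 and 5.35. PMD3 replicate 2 and TLS replicate 2 stood apart from the arrays of their stage, TLS replicate 1 was nearer to MLS and TLS replicate 3 nearer to PRIMARY. PMD3 replicates 1 and 3 correlated better with PMD4 (0.986 for each) than with their own stage (0.980 for each). PREANTRAL replicate 2 bears the source name, with PMSG, and the day of an antral sample and PRIMARY replicate 3 the stage tag of PMD3. Both correlated best with the other arrays of the stage in their titles. Of 11 oocyte marker genes tested, 11 were detected on all 3 arrays in each of PMD3, PMD4 and PRIMARY, and 8 in ANTRAL. They include Gdf9 and Bmp15, growth factors that the oocyte secretes, and Zp1 and Zp3, which build the egg coat. Markers of other ovarian cells that fell between whole ovaries and PRIMARY follicles numbered 7 of 7 tested for endothelium, 6 of 7 for surface epithelium, 7 of 10 for stroma and smooth muscle, 3 of 3 for leukocytes and 2 of 2 for red cells. Over the same step 6 of 9 granulosa markers tested rose (median 0.68), as did 2 of 6 for theca and 1 for stroma and smooth muscle, and 0 of either granulosa or theca markers fell.

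**Figure D1:**
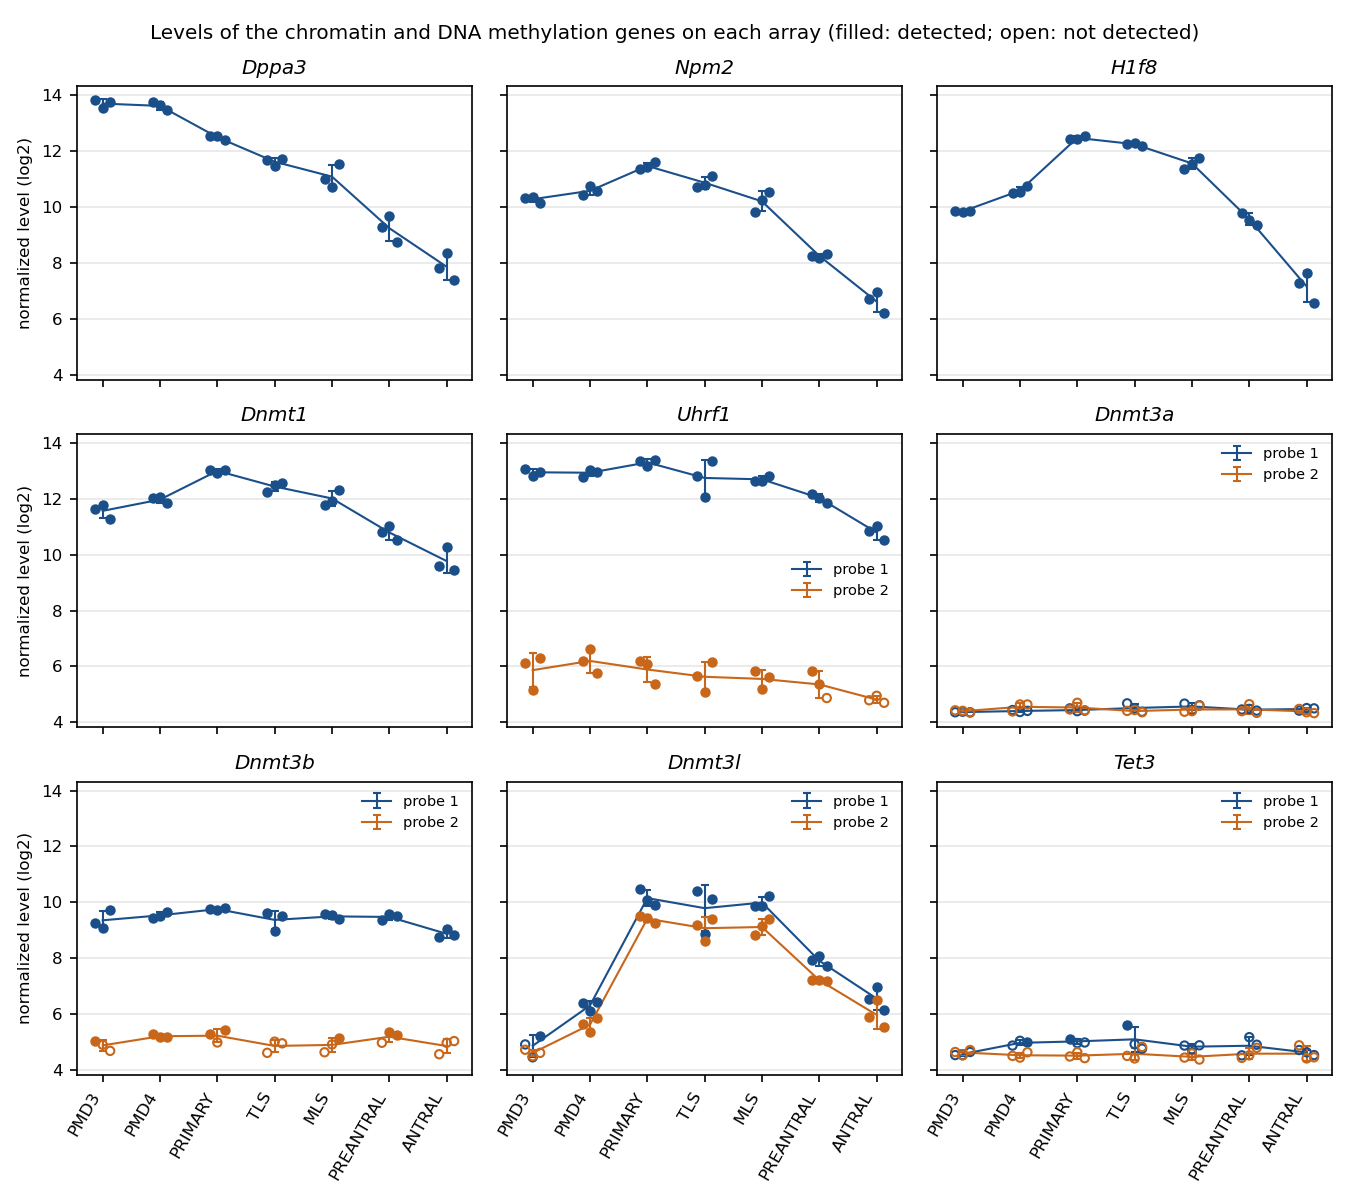
Level (log2 normalized signal, y axis) of 9 genes of oocyte chromatin and DNA methylation on each array, by stage (x axis); points are arrays, filled where the probe was detected, lines join stage means and bars are the SD of 3 arrays. Dppa3 fell from 13.69 in PMD3 to 7.85 in ANTRAL, H1f8, Npm2, Dnmt1 and Dnmt3l peaked at PRIMARY, the brighter Dnmt3b probe stayed between 8.88 and 9.76, and both Dnmt3a probes stayed at background.

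Over the 7 stages, 7 of the 8 genes that passed the filter differed by limma's moderated F test at a Benjamini-Hochberg adjusted p under 0.05, as 66.9% of all genes tested did. Tet3 did not (adjusted p = 0.115). Over the 5 isolated stages the same count was 7 of 8, beside 53.9% of all genes. A gene that passed the filter through the stages in which it was high could hardly fail to differ, so these counts describe the genes and are no evidence of a shared behaviour.

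Dppa3, whose protein (also called STELLA) shields maternal DNA methylation in the early embryo, had its highest mean in the ovaries of the youngest mice and a lower mean at each later stage. It stood at 13.81, 13.52 and 13.74 in PMD3, at 13.74, 13.63 and 13.45 in PMD4 and at 12.53, 12.53 and 12.40 in PRIMARY. It then stood at 11.66, 11.45 and 11.72 in TLS and at 11.00, 10.70 and 11.53 in MLS. The values were 9.29, 9.67 and 8.74 in PREANTRAL and 7.82, 8.35 and 7.39 in ANTRAL. The order of stage means followed that of age, PMD3 overlapped PMD4 and TLS overlapped MLS, and no other neighbours in the order overlapped. The span between PMD3 and ANTRAL was 57.1-fold. Dppa3 fell 2.18-fold from PMD4 to PRIMARY (log2 change -1.12, standard error (SE) 0.24, limma adjusted p = 0.00105), where the tissue also changes from ovary to isolated follicle. From PRIMARY to TLS it fell 1.83-fold (adjusted p = 0.0308). That call was lost without PRIMARY replicate 1, 2 or 3 or TLS replicate 1 or 2 (adjusted p = 0.0887, 0.0999, 0.0668, 0.0599 and 0.11). The change from TLS to MLS did not pass (1.45-fold lower, adjusted p = 0.261).

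The later losses of Dppa3 were 3.59-fold from MLS to PREANTRAL (adjusted p = 1.35e-05) and 2.60-fold from PREANTRAL to ANTRAL (adjusted p = 0.000173). In bulk samples such as these, fewer oocytes per sample and less RNA per oocyte cannot be told apart, and each follicle gains somatic cells as it grows. Beside these losses, 9 and 8 of the 11 oocyte markers tested also fell in the same comparisons, with medians of -1.61 and -1.32.

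Npm2, the oocyte nucleoplasmin that binds histones and remodels chromatin after fertilization, rose into PRIMARY follicles before it fell. Its values were 10.31, 10.35 and 10.15 in PMD3, 10.42, 10.74 and 10.55 in PMD4 and 11.36, 11.43 and 11.59 in PRIMARY. In TLS they were 10.70, 10.77 and 11.11 and in MLS 9.82, 10.23 and 10.53. The highest TLS array lay below the lowest PRIMARY array, TLS overlapped PMD4, and MLS overlapped PMD3 and PMD4. In PREANTRAL the values were 8.23, 8.18 and 8.32 and in ANTRAL 6.69, 6.95 and 6.19. The rise from PMD4 to PRIMARY was 1.85-fold (log2 change 0.89, SE 0.19, adjusted p = 0.00119). The fall from PRIMARY to ANTRAL was 28.8-fold (adjusted p = 4.97e-14). The changes from PRIMARY to TLS and from TLS to MLS were 1.51-fold and 1.59-fold lower and did not pass (adjusted p = 0.0655 and 0.0607). The first passed without TLS replicate 3 or ANTRAL replicate b (adjusted p = 0.0335 and 0.044), and the second without TLS replicate 1, MLS replicate 3 or ANTRAL replicate a or b (adjusted p between 0.035 and 0.0495).

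H1f8, the linker histone of the oocyte, rose to its highest level in PRIMARY follicles and was at its lowest in ANTRAL follicles. It stood at 9.86, 9.80 and 9.84 in PMD3 and at 10.48, 10.52 and 10.73 in PMD4. It reached 12.43, 12.42 and 12.54 in PRIMARY, and was at 12.24, 12.28 and 12.19 in TLS and at 11.36, 11.54 and 11.75 in MLS. None of these stages overlapped another. It was then at 9.78, 9.53 and 9.35 in PREANTRAL, just under PMD3, and at 7.26, 7.64 and 6.55 in ANTRAL. From PMD4 to PRIMARY H1f8 rose 3.70-fold (log2 change 1.89, SE 0.20, adjusted p = 2.34e-07). The difference of 1.68-fold between PMD4 and PMD3 missed the threshold (adjusted p = 0.0691) although every PMD4 array was above every PMD3 array; without ANTRAL replicate a or b, which share the estimate of spread, it passed (adjusted p = 0.0365 and 0.0208). The change from TLS to MLS, 1.61-fold lower, also missed it (adjusted p = 0.0632) and passed without ANTRAL replicate a or b (adjusted p = 0.0329 and 0.0195). From PREANTRAL to ANTRAL H1f8 fell 5.30-fold (adjusted p = 1.07e-08), the largest fall of any listed gene in that comparison. With the authors' deposited values that change was -1.39 on the log2 scale, against -2.41.

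Dnmt1, the maintenance methyltransferase, peaked at PRIMARY. The values were 11.62, 11.78 and 11.29 in PMD3, 12.01, 12.05 and 11.84 in PMD4 and 13.03, 12.91 and 13.04 in PRIMARY. They were 12.25, 12.48 and 12.57 in TLS and 11.79, 11.93 and 12.30 in MLS. MLS overlapped both TLS and PMD4, while PRIMARY stood clear of all. In PREANTRAL they were 10.82, 11.03 and 10.52 and in ANTRAL 9.59, 10.27 and 9.44. Dnmt1 rose 2.04-fold from PMD4 to PRIMARY (log2 change 1.03, SE 0.20, adjusted p = 0.000484). It fell 2.32-fold from MLS to PREANTRAL (adjusted p = 0.000218) and 2.04-fold from PREANTRAL to ANTRAL (adjusted p = 0.000643). Granulosa cells divide as follicles grow, and dividing cells use DNMT1 too. Among 5 proliferation markers tested, 5 rose from PRIMARY to PREANTRAL, over which Dnmt1 fell 4.60-fold. Their part in the level of Dnmt1 was not tested, nor was which Dnmt1 transcript the probe reads.

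Uhrf1, which binds hemimethylated DNA and brings DNMT1 to it, was lowest in ANTRAL follicles, as its partner was. Its brighter probe stood at 13.06, 12.81 and 12.96 in PMD3, at 12.79, 13.02 and 12.97 in PMD4 and at 13.34, 13.16 and 13.39 in PRIMARY. It stood at 12.81, 12.05 and 13.36 in TLS and at 12.62, 12.63 and 12.82 in MLS. TLS was the widest stage, its lowest array being replicate 2, which stands apart over the whole array. PREANTRAL arrays gave 12.18, 12.03 and 11.86 and ANTRAL arrays 10.83, 11.03 and 10.51. Between PMD3 and MLS no change from one stage to the next passed. Under alternatives, Uhrf1 fell by 0.86 on the log2 scale from PRIMARY to TLS without TLS replicate 3 (adjusted p = 0.00966), and it rose by 0.37 from PMD4 to PRIMARY when only those arrays were fitted (adjusted p = 0.0447). Uhrf1 fell 2.42-fold from PRIMARY to PREANTRAL (adjusted p = 0.000128) and 2.34-fold from PREANTRAL to ANTRAL (adjusted p = 0.000296). The fall of 1.59-fold from MLS to PREANTRAL passed narrowly (adjusted p = 0.0497). Leaving out any one of the arrays of those stages ended that call, with adjusted p between 0.0671 and 0.168, as did leaving out any one of most arrays of other stages (0.0504 to 0.0614). The dimmer Uhrf1 probe lay between 4.70 and 6.64 and was detected on 0 of 3 ANTRAL arrays. It was at least 1.49-fold lower in ANTRAL than in PRIMARY (adjusted p = 0.00991 in the fit of all probes), a bound because ANTRAL was below background. Here and below, such a bound sets the mean of the brighter stage against the lowest level of a detected probe on each dim array, or the dim probe's own level where that was higher.

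Dnmt3l, the cofactor of de novo methylation in the oocyte, showed the steepest rise. In PMD3 it stood at 4.92, 4.46 and 5.23 and was detected on 1 of 3 arrays. It was at 6.39, 6.13 and 6.42 in PMD4 and at 10.47, 10.07 and 9.92 in PRIMARY. The lowest PRIMARY array was above the highest PMD4 array by a wide margin. TLS arrays gave 10.40, 8.87 and 10.11 and MLS arrays 9.88, 9.88 and 10.22. The low TLS array was again replicate 2, and PRIMARY, TLS and MLS overlapped one another. PREANTRAL arrays gave 7.94, 8.09 and 7.71 and ANTRAL arrays 6.56, 6.96 and 6.16, the last overlapping PMD4.

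The rise of Dnmt3l from PMD4 to PRIMARY was 14.3-fold (log2 change 3.84, SE 0.30, adjusted p = 2.99e-09). Its second probe gave 13.8-fold (adjusted p = 5.52e-11 in the fit of all probes), from 5.64, 5.38 and 5.86 to 9.53, 9.44 and 9.28. From PMD3 to PMD4 the brighter probe rose (2.72-fold as fitted, adjusted p = 0.0184), a fold that is uncertain because only 1 of 3 PMD3 arrays was above background. Without PMD3 replicate 2 or PMD4 replicate 1, 2 or 3 that rise no longer passed (adjusted p = 0.104, 0.0901, 0.0581 and 0.069), and with no background correction or with the authors' values it was 0.55 or 0.30 on the log2 scale (adjusted p = 0.295 and 0.592). The second probe was detected on 0 of 3 PMD3 arrays and 3 of 3 PMD4 arrays, which puts PMD4 at least 1.52-fold higher (adjusted p = 0.0316 in the fit of all probes). From MLS to PREANTRAL the brighter probe fell 4.24-fold (adjusted p = 3.38e-05) and from PREANTRAL to ANTRAL 2.55-fold (adjusted p = 0.00157). With the authors' deposited values the last change missed the threshold (log2 change -0.55, adjusted p = 0.0621), and the rise into PRIMARY was 2.20 on the log2 scale.

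Dnmt3b, the other de novo methyltransferase gene, moved least among the detected genes. Its brighter probe stood at 9.27, 9.10 and 9.71 in PMD3, at 9.44, 9.52 and 9.65 in PMD4 and at 9.75, 9.74 and 9.79 in PRIMARY. TLS arrays gave 9.61, 8.99 and 9.52, MLS arrays 9.57, 9.54 and 9.39 and PREANTRAL arrays 9.36, 9.58 and 9.50. Means of PMD3, PMD4, TLS, MLS and PREANTRAL could not be ordered, since each overlapped its neighbour in the order. ANTRAL arrays gave 8.75, 9.05 and 8.83, below every array of the other stages except TLS replicate 2. From PREANTRAL to ANTRAL Dnmt3b fell 1.52-fold (log2 change -0.60, SE 0.17, adjusted p = 0.0134). Without PREANTRAL replicate 2 or ANTRAL replicate 1 the fall missed the threshold (adjusted p = 0.0537 and 0.0599), as it did with median scaling (adjusted p = 0.187). Its second probe was dim, between 4.57 and 5.43, and passed in no comparison.

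Dnmt3a, the main de novo methyltransferase of the mouse oocyte, gave no usable signal. Its probes ranged from 4.36 to 4.68 and from 4.33 to 4.70 over the arrays, where detected probes began at 5.0. Tet3 was near background as well: one probe was detected on 1 array each of PMD4, PRIMARY and TLS, at 5.0, 5.13 and 5.61, and the other on none of the 21. Tet3 passed in no comparison between stages, so its log2 changes are not reported as folds. Under alternatives it was lower in ANTRAL than in PRIMARY without TLS replicate 1 or when only those arrays were fitted (adjusted p = 0.0403 and 0.0314), and the test over the 7 stages passed without TLS replicate 3 (adjusted p = 0.041). A probe at background puts no level on its transcript beyond being under what this probe can detect. Zfp57 was not measured.

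**Figure D2:**
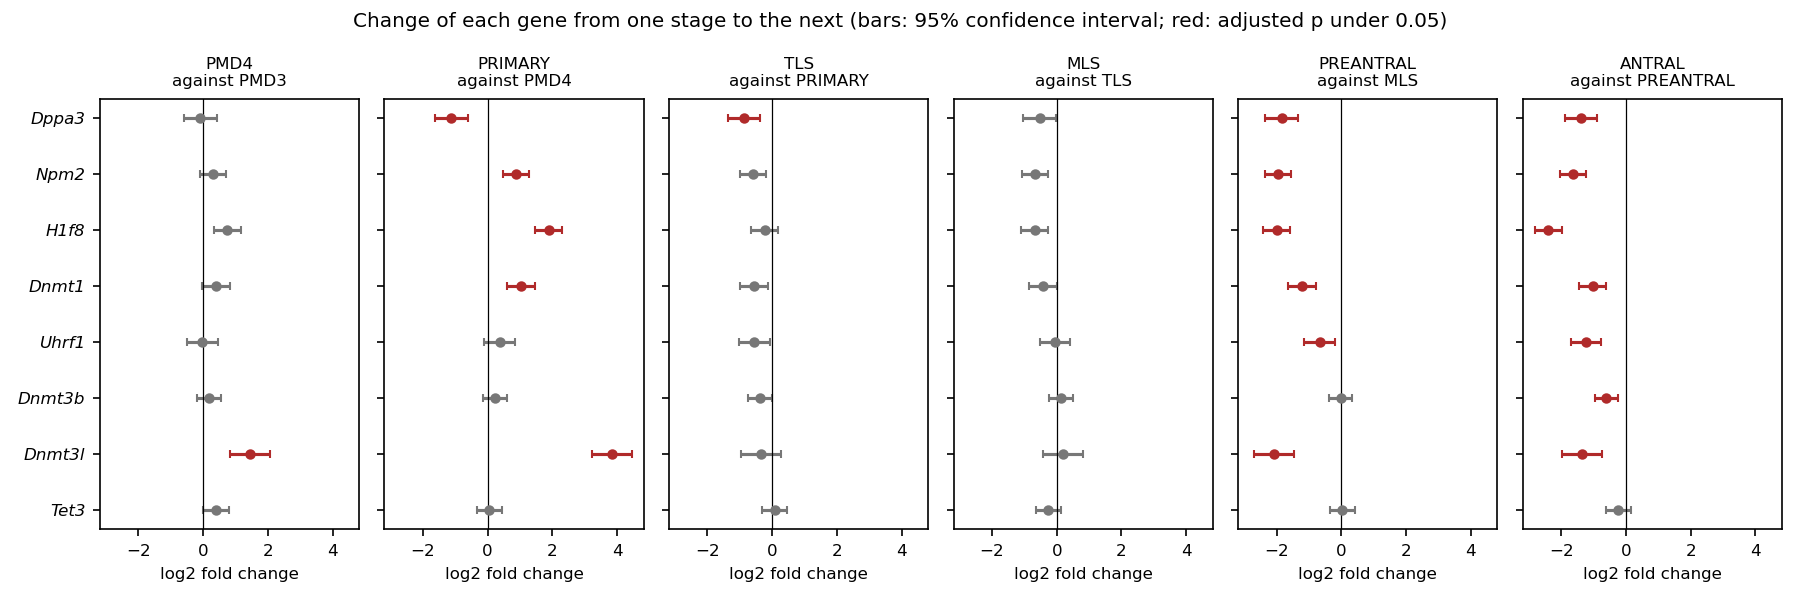
Log2 fold change (x axis) of 8 genes from each stage to the next, one panel per step; points are limma estimates, bars their 95% confidence intervals, and red marks an adjusted p under 0.05. The step into PRIMARY holds 4 rises and the fall of Dppa3, and the last 2 steps hold 6 and 7 falls and no rise.

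Calls were most numerous in the step into PRIMARY and in the last 2 steps. From PMD3 to PMD4, 1 of 8 rose (Dnmt3l), beside 0.844% of all genes, and 0 fell, beside 0.467%. From PMD4 to PRIMARY, 4 rose (Npm2, H1f8, Dnmt1 and Dnmt3l), beside 15.6% of all genes, and 1 fell (Dppa3), beside 15.9%. The median log2 change was 0.63 over the 8 genes and 0.02 over all genes. From PRIMARY to TLS, limma called 1 lower (Dppa3), beside 3.35%, and 0 higher, beside 3.98%. At an unadjusted p under 0.05, 5 of the 8 were lower there (Dppa3, Npm2, Dnmt1, Dnmt3b and Uhrf1) and 0 higher, and the median log2 change was -0.47, against -0.02 over all genes. With the authors' values 3 were called in that step. From TLS to MLS limma called 0 of 8 lower and 0 higher, beside 1.51% and 1.78% of all genes; 3 of the 8 were lower at an unadjusted p under 0.05 (Dppa3, Npm2 and H1f8) and the median was -0.34, against 0.02. With the authors' values 2 were called.

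From MLS to PREANTRAL, 6 of 8 fell, beside 9.8% of all genes, and only Dnmt3b and Tet3 did not pass. The median log2 change was -1.53, against 0.01 over all genes. From PREANTRAL to ANTRAL, 7 of 8 fell, beside 14.8% of all genes, with a median of -1.29 against -0.04. Markers of some other cells moved the other way over that step, in which 13.1% of all genes rose. Among theca markers 4 of 6 tested rose (median 1.62), as did 4 of 7 for endothelium (median 0.83) and 3 of 3 for leukocytes (median 1.53). Of 9 granulosa markers tested 0 rose and 2 fell (median -0.26). For stroma and smooth muscle 2 of 10 rose and 0 fell, and for surface epithelium 2 of 7 rose and 1 fell. Of 2 red cell markers 0 rose and 0 fell. The mean level of the theca markers lay between 6.63 and 6.81 on the PREANTRAL arrays, where Star was not detected, and between 8.41 and 8.86 on the ANTRAL arrays. That of the endothelial markers lay between 7.56 and 7.86 and between 8.28 and 8.54, and that of the leukocyte markers between 5.88 and 5.97 and between 7.16 and 7.33. From PRIMARY to ANTRAL 5 of 6 theca and 7 of 7 endothelial markers rose (medians 3.03 and 2.35), beside 23.3% of all genes. Of 9 granulosa markers 5 rose and 2 fell over that span (median 0.54). The part of these cell types in the falls of the listed genes was not tested. Over the longer spans, 6 fell from PRIMARY to PREANTRAL, beside 17.9%, and 7 fell from PRIMARY to ANTRAL, beside 23.1%. The fall from PRIMARY to ANTRAL was 39.8-fold for H1f8, 28.8-fold for Npm2, 24.8-fold for Dppa3, 12.1-fold for Dnmt3l, 9.37-fold for Dnmt1, 5.67-fold for Uhrf1 and 1.84-fold for Dnmt3b. With the authors' deposited values in place of this normalization the log2 changes were smaller for H1f8 (-4.09, against -5.31), Dppa3 (-3.78, against -4.63), Npm2 (-3.30, against -4.85) and Dnmt3l (-2.12, against -3.59), and the order differed, with Dnmt3l after Dnmt1 and Uhrf1 (-3.10 and -2.51). These comparisons share stages with one another. Among isolated follicles no gene of the list rose in these 4 comparisons, in which 5.72%, 13.1%, 18.1% and 23.3% of all genes did.

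Whether 2 genes changed unequally was asked of 6 pairs, by taking the difference of their log2 levels on each array and comparing 3 arrays with 3 by an exact two-sided permutation test, which cannot give a p under 0.1. From PMD4 to PRIMARY, the log2 difference of Dppa3 from H1f8 changed by -3.01 and that from Npm2 by -2.01 (exact p = 0.1 for both). Over the same step that of Dnmt3l from Dnmt3b changed by 3.62. From PRIMARY to PREANTRAL, the difference of Dnmt1 from Dnmt3b changed by -1.92 and from Uhrf1 by -0.93, and that of Uhrf1 from Dnmt3b by -0.99. In each of the 6 the groups did not overlap and the exact p was 0.1, the smallest the design allows. The pairs were chosen after the levels were seen.

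A second scale set every gene against the mean log2 level of 4 oocyte genes, Gdf9, Bmp15, Zp1 and Zp3, on the same array. This oocyte reference rose from 12.11 ± 0.07 in PMD4 to 13.43 ± 0.05 in PRIMARY (SD, n = 3) and fell to 10.45 ± 0.27 in PREANTRAL and 8.80 ± 0.43 in ANTRAL. Its genes are regulated themselves and did not move alike: from PMD4 to PRIMARY Bmp15 rose 6.71-fold and Zp3 1.53-fold. All 4 were called higher in that step. They belong to the 11 oocyte markers tested, of which 5 rose there, beside 15.6% of all genes, and 1 fell, beside 15.9%. The median log2 change of these 11 markers was 0.27, so the reference rose more than the median oocyte marker. The scale is therefore a comparison with these genes and no correction for the number of oocytes.

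On that scale Dppa3 fell 5.46-fold from PMD4 to PRIMARY (adjusted p = 7.01e-10), while Dnmt3l rose 5.71-fold (adjusted p = 1.15e-08) and H1f8 rose 1.47-fold (adjusted p = 0.0363). The rise of H1f8 missed the threshold when any one of the 6 arrays compared was left out, with adjusted p between 0.0565 and 0.0994. Npm2 and Dnmt1, which had risen on the first scale, did not pass. Their relative log2 changes were -0.44 (95% confidence interval -0.95 to 0.08) and -0.30 (-0.80 to 0.21). With no background correction or with the authors' values that of Npm2 was called lower (adjusted p = 0.036 and 0.018). In all, 2 of 8 rose, beside 1.65% of all genes, and 4 fell, beside 88.4%, since most genes do not rise with the oocyte reference.

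From PRIMARY to PREANTRAL the changes of the stored maternal genes relative to the reference did not pass, while 4 methylation genes were called higher relative to it. Dppa3, Npm2 and H1f8 had relative log2 changes of -0.27 (95% confidence interval -0.82 to 0.28), -0.24 (-0.76 to 0.28) and 0.07 (-0.44 to 0.58), none past the threshold. With Gdf9 alone as the reference these 3 genes fell, by 0.98, 0.95 and 0.63 on the log2 scale (adjusted p = 0.000761, 0.00107 and 0.0157), so the sign of H1f8 turned. Dnmt3b rose 6.52-fold relative to the 4 genes (adjusted p = 1.79e-11), Uhrf1 3.27-fold (adjusted p = 3.22e-07), Dnmt1 1.72-fold (adjusted p = 0.00345) and Dnmt3l 1.67-fold (adjusted p = 0.0242). The relative rises of Dnmt1 and Dnmt3l were not called with Gdf9 alone (log2 0.07 and 0.03, adjusted p = 0.792 and 0.906). That of Dnmt3l also missed the threshold without PRIMARY replicate 2 or 3 or PREANTRAL replicate 2 or 3 (adjusted p = 0.0695, 0.0886, 0.0554 and 0.0633). With Tet3, whose values near background move on this scale only as the reference does, 5 of 8 rose, beside 97.6% of all genes. The median relative log2 change was 0.76 over the 8 genes and 3.03 over all genes. Dppa3, Npm2 and H1f8 were the 3 that were called neither higher nor lower, and 0.238% of all genes were called lower.

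From PREANTRAL to ANTRAL, H1f8 fell 1.69-fold relative to the reference (adjusted p = 0.00531), beside 0.387% of all genes, while Dppa3 and Npm2 did not pass. The relative fall of H1f8 was not called with no background correction (adjusted p = 0.0557) or with the authors' values (log2 change -0.16, adjusted p = 0.409). Dnmt3b rose 2.07-fold (adjusted p = 0.000894) and Dnmt1 1.54-fold (adjusted p = 0.0176). The relative rise of Dnmt1 missed the threshold without PREANTRAL replicate 1 (adjusted p = 0.0663), with the authors' values (log2 change 0.33, adjusted p = 0.0824), with Gdf9 alone (adjusted p = 0.115) and when only those arrays were fitted (adjusted p = 0.0848). With Tet3, 3 of 8 rose, beside 94.8% of all genes. The median relative log2 change was 0.36 over the 8 genes and 1.61 over all genes.

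**Figure D3:**
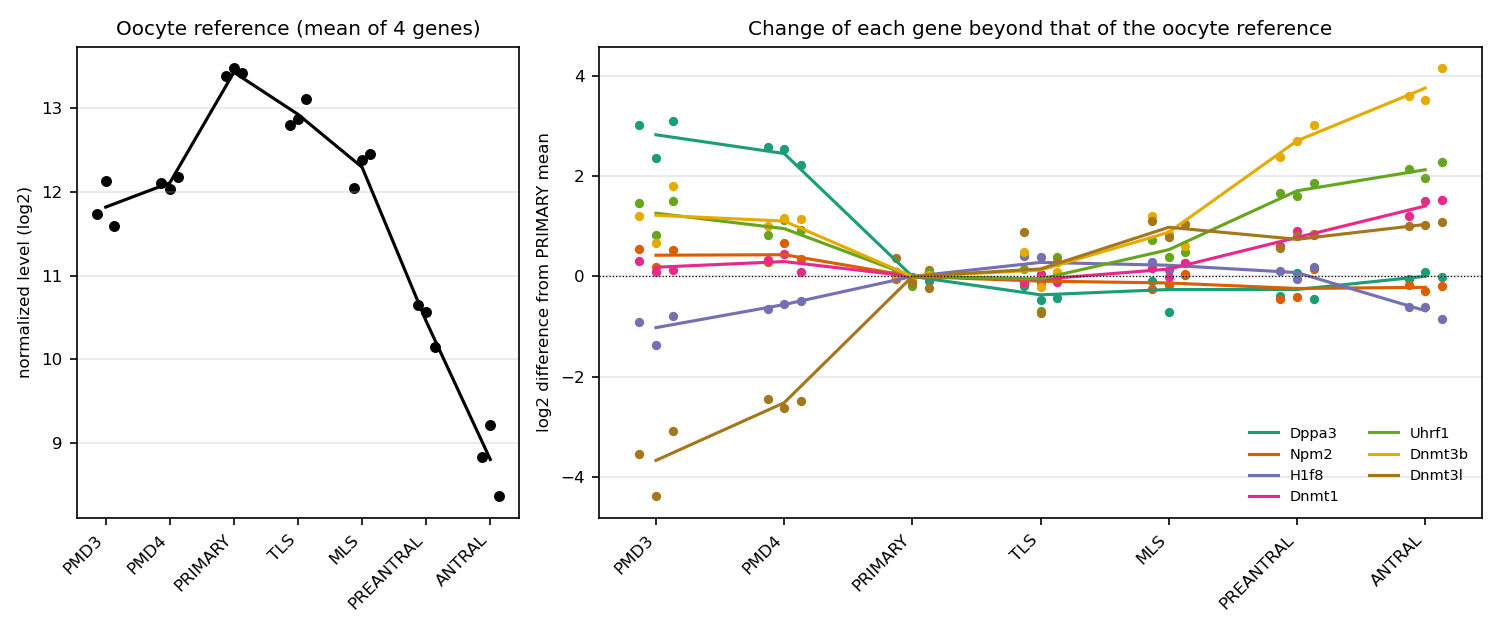
Left, mean log2 level of Gdf9, Bmp15, Zp1 and Zp3 on each array by stage; right, log2 level of each gene minus that mean, drawn as the difference from the gene's PRIMARY mean, with a point per array and lines through stage means. Dppa3 and Dnmt3l move in opposite directions between PMD4 and PRIMARY, and Dnmt3b and Uhrf1 are higher relative to the reference in PREANTRAL and ANTRAL than in PRIMARY. So are most genes: 97.6% are called higher from PRIMARY to PREANTRAL. The median log2 change of all genes there is 3.03, above those of Dnmt3b (2.70) and Uhrf1 (1.71).

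Other genes of the same pathways were read from 5 lists. Among 15 histone methylation enzymes tested, 5 rose from PMD4 to PRIMARY (median 0.25), beside 15.6% of all genes, and 4 fell from PRIMARY to PREANTRAL (median -0.24), beside 17.9%. From PRIMARY to ANTRAL 8 fell, beside 23.1% (median -0.57, against 0.02 over all genes). Kdm1b, a histone H3K4 demethylase needed for the methylation of some maternal imprints in the mouse, fell between PRIMARY and PREANTRAL. It stood at 12.55, 12.66 and 12.44 in PMD4, at 12.35, 12.53 and 12.44 in PRIMARY and at 11.47, 11.68 and 12.01 in TLS. It stood at 9.78, 9.58 and 9.34 in PREANTRAL and at 9.42, 9.51 and 9.26 in ANTRAL. PMD4 and PRIMARY overlapped, and so did PREANTRAL and ANTRAL, with the fall in between. Kdm1b fell 1.65-fold from PRIMARY to TLS (adjusted p = 0.00735) and again from MLS to PREANTRAL (log2 change -1.72, SE 0.16, adjusted p = 4.32e-07). Dot1l, the H3K79 methyltransferase, and Kmt2b, an H3K4 methyltransferase that oocytes require, rose 2.38-fold and 1.98-fold from PMD4 to PRIMARY (adjusted p = 0.000251 and 0.00177). Ezh2, the catalytic subunit of the H3K27 methyltransferase PRC2, fell 2.35-fold from PRIMARY to ANTRAL (adjusted p = 1.06e-05).

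Among 9 histone chaperones tested, 1 rose from PMD4 to PRIMARY, beside 15.6% of all genes, and 5 fell from PREANTRAL to ANTRAL, beside 14.8% (median -0.62, against -0.04 over all genes). Chaf1a, the large subunit of the chaperone CAF-1 that loads histones behind the replication fork, rose 2.61-fold from PMD4 to PRIMARY (adjusted p = 2.62e-05). It then fell 2.16-fold from PRIMARY to PREANTRAL (adjusted p = 0.000261) and 2.93-fold from PREANTRAL to ANTRAL (adjusted p = 8.74e-06). Its ANTRAL arrays, at 7.49, 7.64 and 7.84, lay below every other array. Over that last step the 5 proliferation markers tested (Top2a, Cdk1, Mcm2, Mcm3 and Mcm5) fell too, by 1.85-fold to 2.42-fold.

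Of 8 imprint protection partners tested, 3 rose from PMD4 to PRIMARY, beside 15.6% of all genes, and 3 fell from PREANTRAL to ANTRAL, beside 14.8%. Trim28, the corepressor that ZFP57 recruits, rose 1.45-fold into PRIMARY (adjusted p = 0.0169) and fell 1.64-fold into ANTRAL (adjusted p = 0.00269), from 12.33, 12.11 and 12.27 to 11.42, 11.56 and 11.59. Cbx5, a heterochromatin protein that binds methylated H3K9, rose 2.18-fold from PRIMARY to PREANTRAL (adjusted p = 3.17e-05) and fell 2.02-fold from there to ANTRAL (adjusted p = 0.000158). The direction of Cbx5 over the first of these spans was thus opposite to that of the listed genes.

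Of 9 linker and replacement histone genes tested, limma called 0 from PMD4 to PRIMARY, where H1f8 rose, and 1 had an unadjusted p under 0.05. From PRIMARY to ANTRAL 2 rose and 1 fell, beside 23.3% and 23.1% of all genes. H1f2 stood at 9.59, 9.91 and 9.80 in PRIMARY, at 9.99, 10.18 and 10.00 in PREANTRAL and at 11.96, 11.81 and 11.90 in ANTRAL. It rose 3.56-fold over the last step (adjusted p = 4.47e-09), in which H1f8 fell 5.30-fold. H1f5 rose 2.67-fold from PRIMARY to PREANTRAL (adjusted p = 0.001). Whether these probes tell one histone gene from its close relatives was not tested.

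Of 9 other methylation readers and removers tested, 3 rose and 1 fell from PRIMARY to ANTRAL, beside 23.3% and 23.1% of all genes. Gadd45a, a stress-induced gene that has been linked to DNA demethylation, went down and up by stage. It stood at 10.01, 10.13 and 9.83 in PMD4, at 8.73, 8.56 and 8.70 in PRIMARY and at 9.77, 10.93 and 11.01 in TLS. It stood at 9.43, 9.67 and 9.16 in MLS, at 10.30, 10.46 and 10.34 in PREANTRAL and at 11.63, 11.73 and 11.52 in ANTRAL. It fell 2.51-fold from PMD4 to PRIMARY (adjusted p = 0.00012) and 2.22-fold from TLS to MLS (adjusted p = 0.008). It rose 7.79-fold from PRIMARY to ANTRAL (adjusted p = 8.55e-10), and its relative Gadd45b rose 5.26-fold (adjusted p = 0.000126). Both had risen earlier, by 3.75-fold and 2.94-fold from PRIMARY to TLS (adjusted p = 2.35e-05 and 0.0352). The arrays of Gadd45b spread widely in TLS, at 7.45, 7.15 and 9.16 (SD 1.08), against 6.36, 6.51 and 6.23 in PRIMARY. The size of its rise thus leans on TLS replicate 3. From PRIMARY to PREANTRAL Gadd45a rose 3.26-fold and Gadd45b 3.79-fold (adjusted p = 4.76e-06 and 0.00161). The source names give PMSG treatment for the ANTRAL arrays and, as said, for PREANTRAL replicate 2. The part of that treatment in these rises was not tested.

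**Figure D4:**
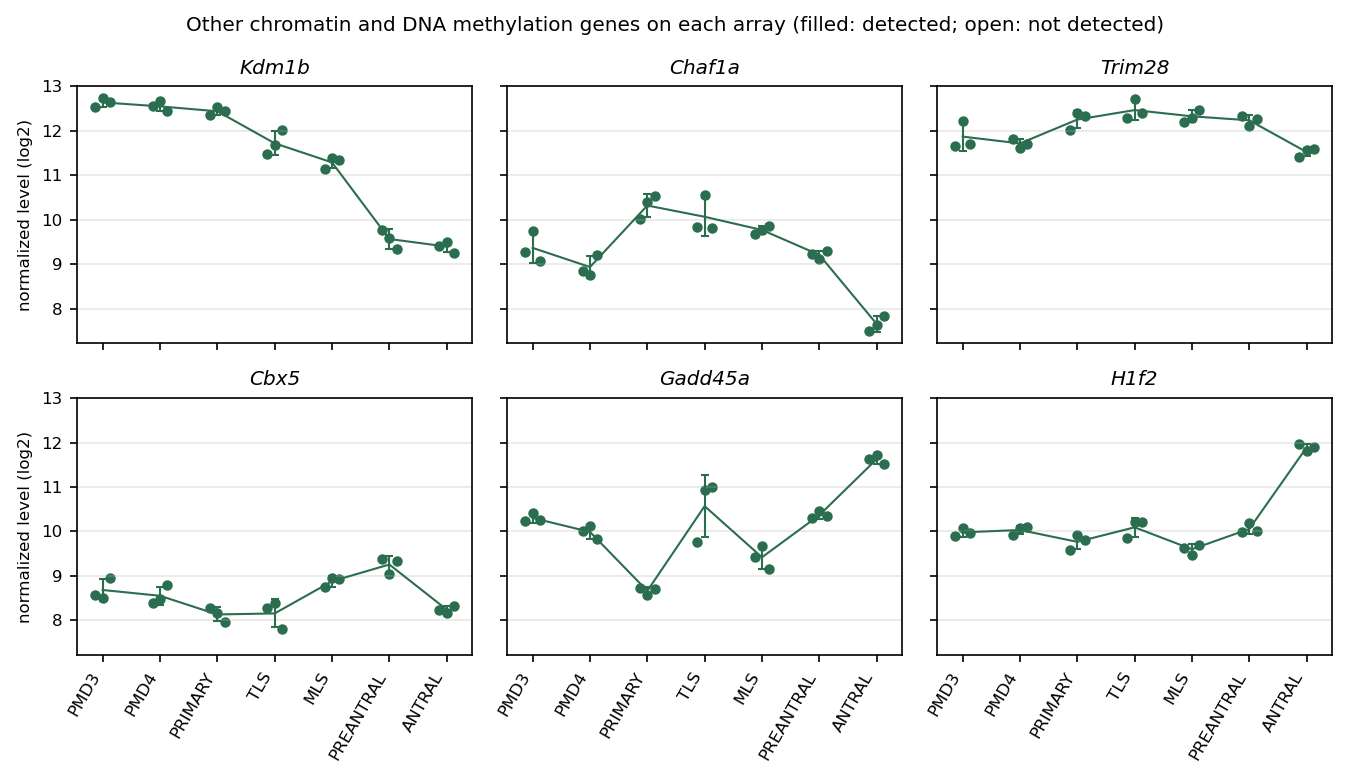
Level (log2 normalized signal, y axis) of 6 other chromatin and DNA methylation genes on each array, by stage (x axis); points are arrays, lines join stage means and bars are the SD of 3 arrays. Kdm1b drops between MLS and PREANTRAL, Chaf1a peaks at PRIMARY and drops in ANTRAL, and Gadd45a and H1f2 are highest in ANTRAL.

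The genes outside the list whose levels were most like each listed gene were named by Pearson's r over the 21 arrays, as a description. The arrays of a stage share its oocyte content, so r rests largely on 7 stage means. For Dppa3 they were Uchl1, a ubiquitin hydrolase abundant in oocytes, Dcpp1 and Siah1b (r = 0.986, 0.984 and 0.981). For Npm2 they were Zp1, Oas1d and Tcl1 (r = 0.990, 0.988 and 0.987). For H1f8 they were E330034G19Rik, Ezhip, an inhibitor of PRC2, and Omt2b (r = 0.988, 0.984 and 0.984). Dnmt1 was most like Vrtn, Ftdc2 and Miox (r = 0.983, 0.982 and 0.978). Dnmt3l was most like Obox7, Ftdc1 and Obox1 (r = 0.984, 0.977 and 0.977), Obox genes being homeobox genes of the oocyte with many similar copies, which the probes may not tell apart. Uhrf1 was most like Tubg2, Dppa5a and Ooep (r = 0.965, 0.963 and 0.962). Dnmt3b stood apart: its most similar gene was Cdt1, which licenses replication origins (r = 0.920), followed by Pan2 and Kcnk5 (r = 0.910 and 0.908). Tet3, near background, reached 0.773 with Traip. Among the listed genes, Npm2 and Dnmt1 were the most alike pair (r = 0.967) and Dppa3 and Dnmt3l the least (r = -0.11).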

How the data were processed

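RNA of each sample was amplified in 1 round and hybridised, per the labels' protocols. The deposited intensity values are average bead signals per probe, neither background corrected nor normalized per the file headers, and the detection p-value beside each is deposited too. The authors also deposited a table of log2 values; the submitters' processing notes name limma, and its transformation and filter are not given in the sources used here. Signals were background corrected with the detection p-values and quantile normalized (neqc of limma 3.58.1, R 4.3.3, offset 16). The 2 ANTRAL arrays whose columns share a name are called replicates a and b; each detection column was paired with the signal it ranks. Probes with a detection p under 0.05 on at least 3 arrays were kept (15836, of which 13626 had a symbol; 3840 probes have none and were left out), and a gene took its probe of highest mean over all arrays. A limma fit with a mean per stage covered all 21 arrays; p-values are two-sided and Benjamini-Hochberg adjusted over 10067 genes, with a threshold of 0.05. Fits were tested on simulated data. The genes and lists were chosen with earlier results of these data known. Genes outside the list were named as the 2 largest called changes per pathway list and comparison, as the 3 most correlated per listed gene, or as reference and marker genes. Alternatives were median scaling, no background correction, the authors' values, no filter and a stricter one, each array left out, deviating or oddly labelled arrays left out, a replicate block, a variance trend, only the groups compared, single probes and Gdf9 alone as reference. The number of arrays limits the precision. No slide or scan is named, so batches could not be examined.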

Additional observations from a re-analysis of the deposited data

How the results depend on the processing

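Of 3307 single-gene values recomputed under alternatives, 3166 kept their direction and their side of the threshold, 66 lost and 41 gained a call, 33 changed sign with no call under either setting, and 1 changed sign with a call under the alternative: H1f8 relative to Gdf9 alone from PRIMARY to PREANTRAL, -0.63 against 0.07. The cause was not tested. From PMD3 to PMD4, 1 gene was called, and 2 with a variance trend; leaving out 1 array gave 0 to 2. From PRIMARY to TLS, 1 was called, against 3 with median scaling, 2 with no background correction, 3 with the authors' values, 0 without both deviating arrays and 0 without both oddly labelled arrays; leaving out 1 array gave 0 to 3. From TLS to MLS, 0 were called, against 2 with no background correction, 2 with the authors' values and 1 with a variance trend; leaving out 1 array gave 0 to 2. Leaving out 1 array gave 5 from PMD4 to PRIMARY, 5 to 6 from MLS to PREANTRAL, 6 to 7 from PREANTRAL to ANTRAL, 6 from PRIMARY to PREANTRAL and 7 to 8 from PRIMARY to ANTRAL. Replicate numbers did not pair the arrays at the median: deviations of arrays with the same number had a median correlation of 0.02 over 51 pairs. Their range was -0.19 to 0.72. Over 102 pairs with different numbers the median was -0.01 and the range -0.55 to 0.39, so a link between some arrays of the same number cannot be set aside. A replicate block by number could use only the 19 arrays that have one, which left ANTRAL with 1 array. The effect of the block therefore cannot be told apart from the loss of ANTRAL replicates a and b. Between stages that kept all their arrays, 2 genes were called from PMD3 to PMD4, 2 from PRIMARY to TLS and 2 from TLS to MLS. Changes into ANTRAL rest there on that 1 array and are given as log2 changes only. From PREANTRAL to ANTRAL, Dnmt3b changed by -0.72 with the block, against -0.60 without it. On the relative scale H1f8 changed by -0.71, against -0.75, and Dnmt1 by 0.41, against 0.63. Low signal limits Dnmt3a, Tet3, the second probes of Uhrf1 and Dnmt3b, and Dnmt3l in PMD3.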
